A study of Rattus norvegicus with 15 samples.

Results

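Mast cell proteases, the subunits of the high-affinity IgE receptor, the receptor Kit and the histamine-making enzyme Hdc were followed in 15 rat mammary tumours. The 9 genes were Mcpt1, Mcpt2, Cpa3, Tpsab1, Tpsb2, Ms4a2, Fcer1a, Kit and Hdc, and each was found by matching the accession of an array probe to its rat gene symbol. Of these 9 genes, out of 13832 genes with a named probe, 8 had a probe and 7 were bright enough to be tested. The question asked of them was whether Kit, which mammary epithelium also expresses, separates from the proteases across tumours and diets.

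The tumours came from female Sprague-Dawley rats whose early-life diet differed in zinc, and RNA from each was hybridised alone, in Cy3, to an Agilent rat expression array. The deficient group had 5 tumours and chow with 3 mg of zinc per kg, the supplemented group had 5 tumours and chow with 180 mg per kg, and the adequate group had 5 tumours and chow with 35 mg per kg. The dams, 16 per diet, ate this chow from gestation day 10 until weaning on day 21, and their daughters kept it until day 51. On day 51 every rat of all 3 groups, the adequate one included, was given DMBA (7,12-dimethylbenz[a]anthracene) into the stomach at 50 mg/kg. DMBA is a polycyclic hydrocarbon that is widely used to start mammary tumours in rats. All rats ate adequate chow afterwards, and tumours were taken at 180 days. The labels name the adequate group a negative control, but it carried DMBA tumours too. They do not say whether tumours of a group came from separate rats or litters, so the p-values below measure only the spread between these samples.

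Mast cells are tissue-resident immune cells that store proteases, histamine and heparin in granules. Their granule proteases are chymases (Mcpt1, Mcpt2), tryptases (Tpsab1, Tpsb2) and a carboxypeptidase (Cpa3). IgE bound to its receptor, whose alpha chain is Fcer1a and whose beta chain is Ms4a2, triggers release of the granules when an antigen crosslinks it. Mast cells depend on KIT, the receptor for stem cell factor, throughout life. KIT is also carried by melanocytes, early blood cells including erythroid progenitors, and luminal progenitor cells of the mammary epithelium.

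The promoters of the genes whose levels are set side by side below are shown first, because GATA2 and MITF are known regulators of mast cell genes. The 250 bases before the RefSeq start of each gene (build GRCr8) were searched on both strands for 2 short motifs. GATAA, which reads TTATC on the other strand, is the core that factors of the GATA family bind. The E-box CATGTG, which reads CACATG when the strand is turned, is a motif that MITF binds. These motifs do not overlap each other in any sequence shown, and capitals mark every match. RefSeq promoters were found for 7 of the 9 genes.
Cpa3, chr2:104673238-104673487, minus strand: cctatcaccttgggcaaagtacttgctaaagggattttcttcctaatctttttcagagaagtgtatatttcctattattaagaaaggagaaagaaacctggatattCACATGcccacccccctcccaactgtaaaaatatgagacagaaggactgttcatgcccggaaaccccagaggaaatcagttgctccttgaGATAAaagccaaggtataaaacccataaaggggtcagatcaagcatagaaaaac
Mcpt1, chr15:33841356-33841605, plus strand: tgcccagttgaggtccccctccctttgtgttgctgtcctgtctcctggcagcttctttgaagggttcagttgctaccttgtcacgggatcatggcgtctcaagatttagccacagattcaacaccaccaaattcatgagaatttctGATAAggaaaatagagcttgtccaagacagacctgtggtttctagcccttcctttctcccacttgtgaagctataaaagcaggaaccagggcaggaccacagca
Tpsb2, chr10:14886060-14886309, plus strand: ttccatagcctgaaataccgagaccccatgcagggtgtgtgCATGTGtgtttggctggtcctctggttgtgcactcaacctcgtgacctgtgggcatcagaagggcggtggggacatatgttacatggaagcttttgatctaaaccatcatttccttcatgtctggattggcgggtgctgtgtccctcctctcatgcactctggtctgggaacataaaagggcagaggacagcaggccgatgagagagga
Tpsab1, chr10:14867303-14867552, minus strand: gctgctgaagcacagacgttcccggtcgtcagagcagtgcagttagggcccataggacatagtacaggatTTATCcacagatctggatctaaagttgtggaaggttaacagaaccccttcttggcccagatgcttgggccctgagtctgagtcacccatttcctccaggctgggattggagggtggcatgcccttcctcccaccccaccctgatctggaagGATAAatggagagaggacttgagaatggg
Kit, chr14:32978813-32979062, minus strand: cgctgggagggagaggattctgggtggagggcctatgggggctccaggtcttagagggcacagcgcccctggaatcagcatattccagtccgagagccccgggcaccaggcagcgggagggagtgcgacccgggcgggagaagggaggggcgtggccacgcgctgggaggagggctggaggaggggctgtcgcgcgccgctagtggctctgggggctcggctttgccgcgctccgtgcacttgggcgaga
The Cpa3 window held GATAA 54 bases and CACATG 144 bases before the start. GATAA lay 104 bases before the start of Mcpt1. The Tpsab1 window held both orientations, 180 and 29 bases before the start, the Tpsb2 window held CATGTG 209 bases before it, and the Kit window held neither motif. Of the windows not shown, that of Hdc held neither motif either, and that of Fcer1a held both, TTATC 93 bases and CACATG 208 bases before the start. Of the 33469 rat promoters of the same length, 23.5% held GATAA and 12.1% held CATGTG on either strand, so a match is common and describes only the letters. Gata2 was well above background on 2 deficient, 0 supplemented and 1 adequate array and Mitf on none of the 15, so neither regulator was tested.

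Levels are given as the log2 of a probe's background-subtracted signal minus the log2 of the 75th percentile of its array, so 0 is the brightness that 75% of probes do not exceed. A level serves to set tumours against each other for the same probe, and not to set probes against each other. Between 13854 and 24009 of 43379 spots per array were well above background by the scanner software's own test, no spot was saturated, and arrays correlated with each other at 0.910 to 0.980. Probes well above background on at least 5 arrays were tested, 21015 in all. The 15 arrays lay on 4 slides, each of which held all 3 diets. Epcam, an epithelial surface protein, was well above background in every tumour, at 4.63 to 5.12 in deficient, 4.42 to 5.52 in supplemented and 4.40 to 5.32 in adequate tumours.

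Cpa3 separated 13 tumours from the other 2. In deficient tumours 1 to 5 Cpa3 read -0.40, 1.55, -4.24, -0.32 and 0.57, in supplemented tumours 0.91, 0.85, 0.06, -2.89 and 1.00, and in adequate tumours 2.01, 0.41, -0.48, 0.25 and 1.07. Deficient tumour 3 and supplemented tumour 4 were not well above background and lay more than 2 log2 units under the lowest of the others. Their arrays were not dim: 19256 and 18473 of their spots were well above background. Both lay on slide 3, with deficient tumour 4 and adequate tumour 3, and these 4 were among the 5 lowest for Cpa3 and were the 4 lowest for Ms4a2. Slide 3 held tumours of all 3 diets, and its part in the low values was not tested. Because these tumours stand apart, several results below are given with and without them. In RNA from whole tumours, fewer mast cells and less RNA per mast cell cannot be told apart.

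The rat chymase Mcpt1 was lowest in the same tumours. Its levels were -1.80, 1.51, -4.34, 0.54 and 0.74 in deficient tumours, 1.84, 2.02, -0.47, -3.21 and 3.43 in supplemented tumours and 2.41, 1.60, 0.50, 1.46 and 2.23 in adequate tumours. Deficient tumour 3 and supplemented tumour 4 lay at the bottom, and the probe was well above background in the other tumours except deficient tumour 1. Some rat chymases are paralogues of similar sequence, and the RefSeq entry of that probe gives the protein names rMCP-1 and rMCP-2 together, so signal from a paralogue cannot be told apart here. Mcpt2 was not matched to a probe under its own symbol and is not analysed here.

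The tryptases parted. Tpsb2 read -2.04, 1.17, -3.57, -0.51 and 0.75 in deficient tumours, 1.19, 0.06, -0.35, -3.51 and 0.94 in supplemented tumours and 1.66, 1.02, 0.28, 0.06 and 1.78 in adequate tumours, with the same 2 tumours lowest and deficient tumour 1 next; these 3 were not well above background. Tpsab1 read 3.20, 2.61, 3.04, 3.04 and 2.42 in deficient tumours, 2.82, 2.65, 2.81, 2.84 and 3.03 in supplemented tumours and 2.56, 3.42, 2.48, 2.38 and 2.94 in adequate tumours. The Tpsab1 probe was well above background in all 15 tumours and spanned 1.03 log2 units, against 5.35 for the Tpsb2 probe. In deficient tumour 3 and supplemented tumour 4 it read 3.04 and 2.84, above the median of the other 13 tumours (2.81). Tpsab1 and Tpsb2 are neighbouring genes of similar sequence, and what part of the Tpsab1 signal comes from other transcripts was not tested.

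Of the IgE receptor chains, Ms4a2 was lowest in the same tumours as Cpa3, Mcpt1 and Tpsb2, but was not low in deficient tumour 1. It read 0.83, 0.92, -3.93, -2.27 and -0.37 in deficient tumours, 0.91, 0.08, -0.07, -3.91 and 0.02 in supplemented tumours and 1.14, -0.20, -1.38, -0.15 and 0.40 in adequate tumours. Deficient tumour 3 and supplemented tumour 4 were again the lowest, and they and deficient tumour 4 were not well above background. A second, dimmer Ms4a2 probe was well above background on 3 arrays and was not tested. The alpha chain Fcer1a was well above background in 1 deficient, 1 supplemented and 2 adequate tumours, ranged over -3.12 to -1.65, -4.29 to -1.95 and -3.22 to -0.94 in these diets, and was not tested. Fcer1g, the gamma chain that other Fc receptors of macrophages also use, was bright in every tumour (2.34 to 3.76 in deficient, 2.14 to 3.85 in supplemented and 2.38 to 4.10 in adequate tumours) and was not low in deficient tumour 3 (3.76) or supplemented tumour 4 (2.76).

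Hdc, which makes histamine from histidine, read -3.47, 0.68, -2.67, -1.67 and -0.17 in deficient tumours, -0.22, -0.05, -0.58, -3.91 and 0.55 in supplemented tumours and 0.79, 0.18, -1.04, 0.17 and -0.02 in adequate tumours. Supplemented tumour 4 was lowest, deficient tumour 1 next and deficient tumour 3 after it. Hdc was well above background in 2 deficient, 4 supplemented and 5 adequate tumours.

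Kit was high in the tumours in which Cpa3 was not well above background. It read -0.995, -2.23, 0.01, -1.87 and -1.88 in deficient tumours, -1.77, -2.40, -2.21, -1.62 and -2.79 in supplemented tumours and -2.14, -2.07, -3.23, -2.64 and -2.05 in adequate tumours. The highest value of all 15 belonged to deficient tumour 3, and supplemented tumour 4 was the highest of its diet. Kit was a dim probe, well above background in 4 deficient, 3 supplemented and 1 adequate tumour, so 4 of the 5 adequate values carry little signal over background. Its ligand Kitlg was bright throughout, at 4.69 to 5.42 in deficient, 4.56 to 5.63 in supplemented and 4.24 to 5.63 in adequate tumours.

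**Figure D1:**
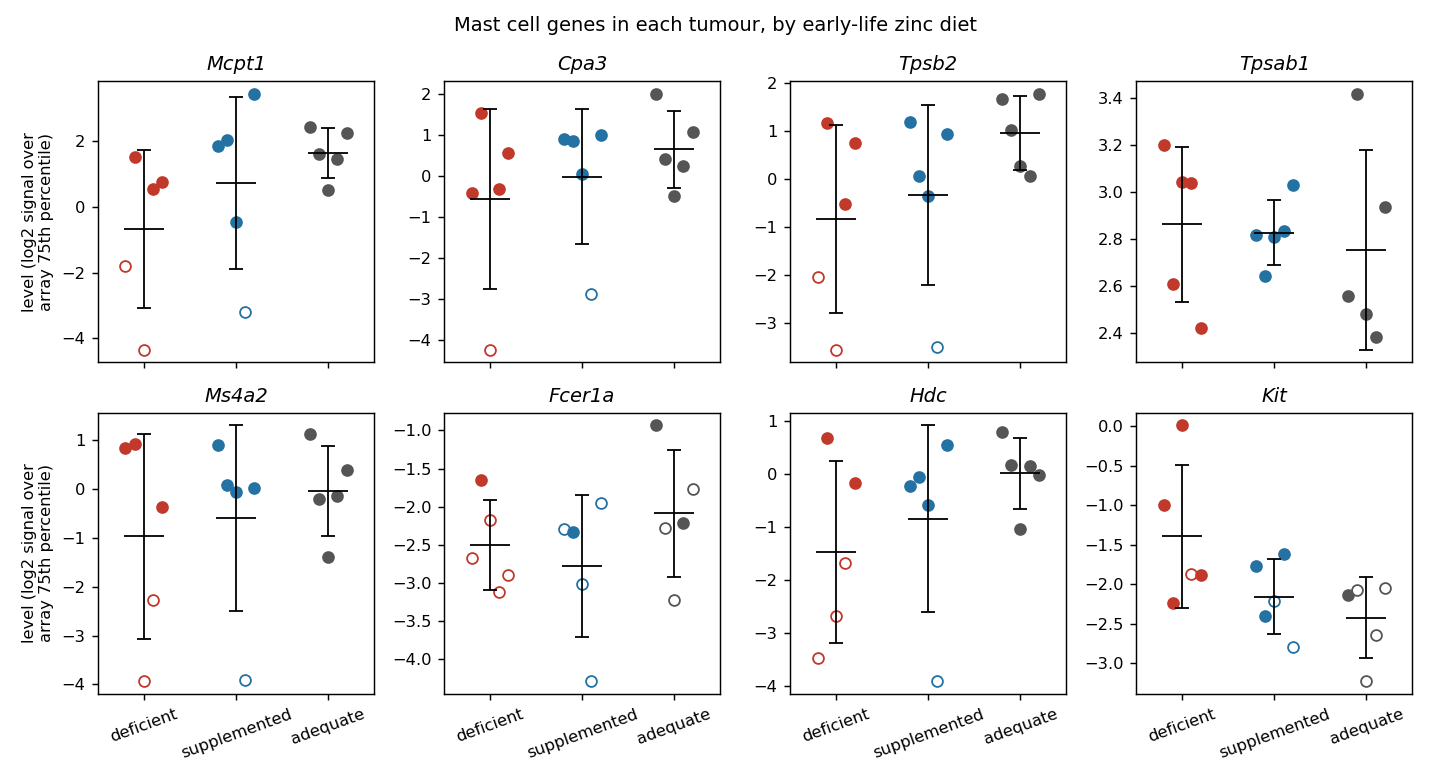
Level of each mast cell gene in each tumour (vertical axis, log2 signal over the array's 75th percentile) by early-life zinc diet (horizontal axis), with the mean and SD of 5 tumours as bars; open circles are tumours in which the probe was not well above background. Deficient tumour 3 and supplemented tumour 4 are the lowest open circles for Mcpt1, Cpa3, Tpsb2 and Ms4a2, while Tpsab1 spans 1.03 log2 units in all.

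The deficient diet was set against the adequate diet to ask whether early zinc shortage left a mark on these genes. Cpa3 averaged -0.57 ± 2.20 in deficient and 0.65 ± 0.94 in adequate tumours (SD, n = 5 each), Mcpt1 -0.67 ± 2.39 and 1.64 ± 0.75, and Tpsb2 -0.84 ± 1.97 and 0.96 ± 0.78. The mean was lower in deficient tumours for 5 of the 7 tested genes and higher for Kit and Tpsab1, with a median difference of -1.22. Over all tested probes the median was -0.01, and 49.2% were higher. The 5 lower genes, Cpa3, Mcpt1, Tpsb2, Ms4a2 and Hdc, were low in some of the same tumours and are not separate observations. None of the 7 passed the test: limma's adjusted p lay between 0.986 and 0.988, and over the whole array 0% of 21015 probes were called. The difference was -2.31 for Mcpt1 (95% interval -4.76 to 0.14), -1.80 for Tpsb2 (-3.72 to 0.12), -1.48 for Hdc (-3.21 to 0.26), -1.22 for Cpa3 (-3.19 to 0.75) and -0.92 for Ms4a2 (-2.94 to 1.095). For Tpsab1 it was 0.11 (-0.34 to 0.55). All 7 genes overlapped between these diets.

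These differences leaned on single tumours. With deficient tumour 3 and supplemented tumour 4 left out, the difference between deficient and adequate tumours was -0.30 for Cpa3, -0.18 for Ms4a2, -1.39 for Mcpt1, -1.12 for Tpsb2 and -1.18 for Hdc. With arrays weighted by their quality it was -0.10 for Cpa3, -0.02 for Ms4a2, -0.41 for Hdc, -0.52 for Tpsb2 and -1.10 for Mcpt1, and under normexp background correction with quantile normalization -0.47 for Cpa3, -0.24 for Ms4a2, -0.53 for Hdc, -0.64 for Tpsb2 and -1.002 for Mcpt1. Within slides, the Cpa3 difference ran between -2.41 and 1.14 and the Mcpt1 difference between -4.22 and -0.09.

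Kit averaged -1.39 ± 0.91 in deficient and -2.42 ± 0.51 in adequate tumours (SD, n = 5 each), a difference of 1.03 (SE 0.38, 95% interval 0.22 to 1.84). Of the deficient tumours, 4 read above every adequate tumour and the remaining one lay within their range. Among those 4, deficient tumour 4 was not well above background for Kit, and neither were 4 of the 5 adequate tumours. Deficient tumours 1 and 4 also had the arrays with the lowest 75th percentiles (signal of 50.6 and 52.2), which the level divides by. Adequate tumours ran from 55.8 to 170, and deficient tumours 2 and 5 were at 153 and 177. The adequate tumour at 55.8 was tumour 2, where Kit read -2.07. In limma the unadjusted p of Kit was 0.0157 and its adjusted p 0.986. It was the only one of the 7 genes with an unadjusted p under 0.05, a mark that 3.9% of all tested probes reached. The difference was 0.68 without deficient tumour 3 and supplemented tumour 4, and 0.32 in the authors' deposited values. Within slides it was higher in 3 of 4, between -0.16 and 2.30.

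Supplemented tumours were set against the same 5 adequate tumours. The differences were -1.29 for Tpsb2, -0.92 for Mcpt1, -0.86 for Hdc, -0.67 for Cpa3, -0.55 for Ms4a2, 0.07 for Tpsab1 and 0.27 for Kit, with a median of -0.67 against -0.01 over all probes. Their adjusted p was 1 in limma for all 7, none had an unadjusted p under 0.05 (1.98% of all probes did), and 0% of probes were called. Without supplemented tumour 4 and deficient tumour 3, the sign turned for Cpa3 (0.05), Mcpt1 (0.06) and Ms4a2 (0.27), and Tpsb2 stood at -0.50 and Hdc at -0.09.

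Between supplemented and deficient tumours the differences, supplemented minus deficient, were 1.39 for Mcpt1, 0.62 for Hdc, 0.55 for Cpa3, 0.51 for Tpsb2, 0.37 for Ms4a2, -0.04 for Tpsab1 and -0.76 for Kit. These values include deficient tumour 3 and supplemented tumour 4. Adjusted p lay between 0.713 for Kit and 0.977 for Tpsab1 in limma, no gene had an unadjusted p under 0.05 (7.03% of all probes did), and 0% of probes were called. In the F test over the 3 diets none of the 7 was called (adjusted p from 0.990 to 0.992, with 0% of probes called), and Kit alone had an unadjusted p under 0.05 (0.0407), which 4.03% of all probes had. All 7 genes overlapped between the diets in each comparison, whereas diets did not overlap for 0.395% of all probes between deficient and adequate, 0.347% between supplemented and adequate and 1.51% between supplemented and deficient tumours. A probe's 95% interval had a median half-width of 0.511 log2 units, a factor of 1.43. The Cpa3 interval was wider, from -2.64 to 1.30 for supplemented minus adequate and from -1.42 to 2.52 for supplemented minus deficient.

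**Figure D2:**
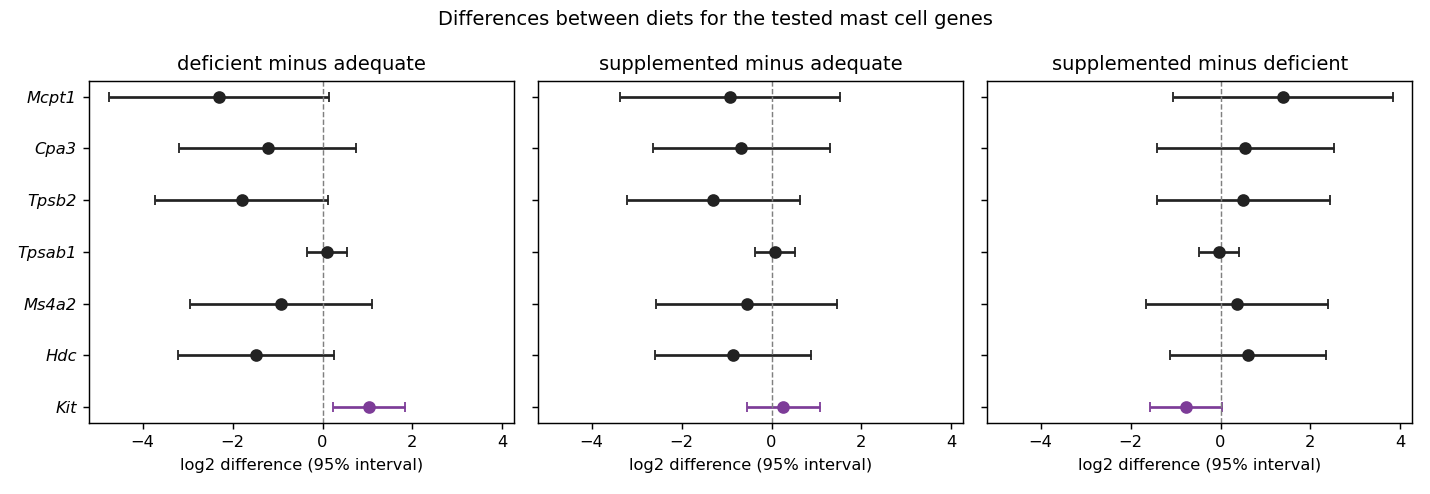
Difference between diets in log2 units (horizontal axis) for each of the 7 tested genes (rows), with limma's 95% interval as bars, in 3 panels for deficient minus adequate, supplemented minus adequate and supplemented minus deficient; Kit is in purple. The Kit interval for deficient minus adequate (0.22 to 1.84) leaves out 0 before adjustment, and the narrowest intervals belong to Tpsab1.

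Correlations between genes were taken over the 13 tumours with Cpa3 well above background, since the other 2 form a cluster of their own. Cpa3, Mcpt1, Tpsb2, Ms4a2 and Hdc were grouped because they were seen to move together, so their likeness is a description. All 10 pairs among them were positive, with Pearson's r between 0.186 and 0.865 and Spearman's rho between 0.445 and 0.841. After adjustment over the 21 pairs of the 7 genes, 7 of these 10 passed in permutation tests. Cpa3 correlated with Tpsb2 at r = 0.777 (permutation p = 0.00134, adjusted p = 0.00563; rho = 0.808, adjusted p = 0.00854), and the value was 0.831 without the 2 tumours farthest from the median of Cpa3. With Hdc the value was 0.775 (adjusted p = 0.00563) and with Mcpt1 0.726 (adjusted p = 0.0160). The pairs that did not pass joined Ms4a2 to Mcpt1 (0.186), Tpsb2 (0.287) and Hdc (0.274). With slide means removed the 10 values ran from 0.308 to 0.890, and with diet means removed from 0.126 to 0.848.

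No correlation of Kit with these 5 genes passed over the 13 tumours. Its r with Cpa3 was -0.058 (permutation p = 0.852, adjusted p = 0.895) and its rho -0.055 (permutation p = 0.864) over the 13 tumours, and r was -0.484 without the 2 tumours farthest from the median of Cpa3. With the other 4 genes r lay between -0.537 (Hdc) and 0.330 (Ms4a2), and none of the 5 pairs passed (adjusted p from 0.199 to 0.895). After slide means were removed, all 5 values were negative, between -0.670 and -0.408. None of Tpsab1 with them passed either: its r lay between -0.356 and -0.022 (adjusted p from 0.414 to 0.943). Tpsab1 and Kit correlated with each other at 0.458 (permutation p = 0.116, adjusted p = 0.244; rho = 0.473, adjusted p = 0.249). Kit was well above background in only 6 of the 13 tumours, and a correlation that misses the threshold does not show that the genes are unrelated. Over all 15 tumours Kit's r was -0.740 with Mcpt1 (adjusted permutation p = 0.00616) and -0.659 with Tpsb2 (0.0151). It was -0.644 with Cpa3 (0.0253) and -0.623 with Hdc (0.0226), so these passed, while Ms4a2 did not (-0.415, 0.166). By rho over all 15 only Hdc passed with Kit (-0.604, adjusted permutation p = 0.0415).

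**Figure D3:**
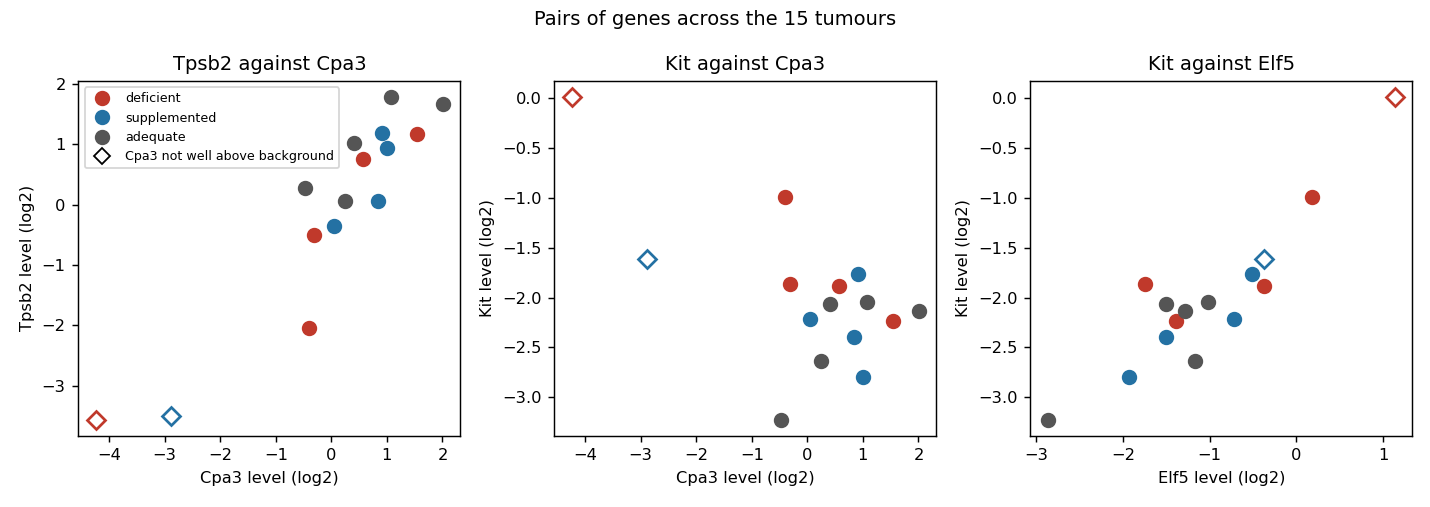
Levels in log2 units of Tpsb2 against Cpa3 (left), Kit against Cpa3 (middle) and Kit against Elf5 (right), one point per tumour, coloured by diet; diamonds are the 2 tumours in which Cpa3 was not well above background. Over the 13 other tumours r was 0.777 for Tpsb2 with Cpa3, -0.058 for Kit with Cpa3, which missed the threshold, and 0.840 for Kit with Elf5.

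Whether diet shifted Kit against a protease was tested on the difference of the levels within each tumour, which also cancels the scaling of the array. The Kit-minus-Cpa3 difference was higher by 2.25 in deficient than in adequate tumours (exact two-sided permutation p = 0.0952), and by 0.981 without deficient tumour 3 and supplemented tumour 4 (exact permutation p = 0.183). It was higher by 0.934 in supplemented than in adequate tumours (exact permutation p = 0.413), but by 0.080 without those tumours (exact permutation p = 0.841). Supplemented minus deficient it was -1.32 (exact permutation p = 0.476), and -0.900 without deficient tumour 3 and supplemented tumour 4 (exact permutation p = 0.286). Of 18 such tests over the 6 other genes and 3 comparisons, the smallest exact permutation p was 0.0238, for Kit minus Mcpt1 between deficient and adequate tumours (3.34, and 2.07 without those tumours), and its adjusted p was 0.238. None of the 18 passed after adjustment. With 5 tumours a diet the exact permutation test can reach 0.00794 at the least. After adjustment over 18 tests a lone test at that value cannot pass. The missed threshold therefore does not show that diet left Kit and the other genes unshifted against each other.

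The genes whose level was most like that of Cpa3 were ranked by Pearson's r over all 15 tumours among 8311 tested genes, and since that ranking leans on the 2 tumours that stand apart, r over the 13 others is given beside it as a description. First came Cma1, the mast cell chymase of a separate gene from Mcpt1 (0.911, and 0.427 over 13). Ddc, which decarboxylates aromatic amino acids (0.882, and 0.661), and Alox5, which starts leukotriene synthesis (0.784, and 0.747), kept a high value over 13 tumours, as did the autophagy gene Becn1 (0.772, and 0.725). The other 4 of the first 8 did so less: Supt16h (0.811, and 0.321), Rps26 (0.782, and 0.332), Chn1 (0.806, and 0.140) and Ptprn2 (0.790, and -0.109). Cma1 read 3.28 to 4.31 in the 4 other deficient tumours and -1.95 in deficient tumour 3. In supplemented tumours it read 2.04 to 3.74 and, in supplemented tumour 4, -0.52, and in adequate tumours 2.81 to 4.63.

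By the same ranking, genes most like Kit were Plscr2 (0.912, and 0.792 over 13), Elf5 (0.911, and 0.840), Sorbs2 (0.900, and 0.818), Rai2 (0.859, and 0.903), Cp (0.858, and 0.723), Pard3b (0.855, and 0.775) and Cited2 (0.846, and 0.747). Elf5 is a transcription factor of luminal progenitor and alveolar cells, and Cp is the copper-carrying ferroxidase ceruloplasmin. Elf5 read 0.18, -1.38, 1.14, -1.74 and -0.37 in deficient tumours, -0.52, -1.50, -0.71, -0.37 and -1.92 in supplemented tumours and -1.29, -1.51, -2.87, -1.17 and -1.02 in adequate tumours. Like Kit, it was highest in deficient tumour 3 and lowest in adequate tumour 3.

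Other mast cell genes were mixed. Of 32 listed, 24 had a probe and 14 were tested; Gata2, Mitf, Hpgds, Mcpt4 and Tpsg1 were among those too dim. Over the 13 tumours 9 of the 14 had a positive r with Cpa3 (median 0.13, against -0.02 over all tested genes) and 4 of the 14 with Kit (median -0.13, against -0.08). Slc18a2, which loads histamine and serotonin into granules, had r = 0.646 with Cpa3 and -0.568 with Kit, and Ndst2, an enzyme of heparin synthesis, had 0.537 and 0.159. Enpp3, a surface enzyme of mast cells and basophils that epithelia also express, had 0.080 with Cpa3 and 0.673 with Kit. Srgn, the granule proteoglycan serglycin, which other blood cells share, had 0.807 with Cpa3; it lies outside the naming rule and was chosen after its values were seen. None of the 14 was called in any diet comparison. The receptor for interleukin-33 on mast cells, Il1rl1, read -2.65 to 0.56 in deficient, -2.76 to -0.02 in supplemented and -2.71 to 0.02 in adequate tumours and had r = -0.359 with Cpa3.

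The signalling genes downstream of KIT and the IgE receptor, which many cell types share, were mixed too. Of 21 listed, 16 were tested and none was called in any comparison. Over the 13 tumours 9 of 16 had a positive r with Cpa3 (median 0.08) and 5 of 16 with Kit (median -0.27). Over all 8382 tested genes, 3995 were positive with Cpa3 (median -0.02) and 3660 with Kit (median -0.08). Lat, the adaptor of IgE receptor signalling, had r = 0.476 with Cpa3 and -0.531 with Kit. Plcg1, a phospholipase of the same pathway, had -0.026 with Cpa3 and 0.636 with Kit, and Inpp5d had -0.312 and -0.581. The Kitlg difference was 0.07 between deficient and adequate tumours, 0.13 between supplemented and adequate tumours and 0.06 as supplemented minus deficient.

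Most markers of luminal progenitor and alveolar cells correlated positively with Kit. Of 13 listed, 11 were tested, and 10 of the 11 had a positive r with Kit over the 13 tumours (median 0.35, against -0.08 over all 8382 tested genes, of which 3660 were positive), and 5 of 11 with Cpa3 (median -0.13). The values with Kit were 0.840 for Elf5, 0.631 for the milk protein gene Csn3 and -0.307 for Aldh1a3, the exception, which was named after its values were seen. The mean level of the list was 2.55 to 3.28 in deficient tumours, 2.14 to 3.22 in supplemented tumours and 1.82 to 3.00 in adequate tumours. Its highest values of all were in deficient tumour 3 (3.28) and supplemented tumour 4 (3.22), where Cpa3 was not well above background, and the other 13 tumours reached 3.14. The mean of supplemented tumour 4 takes in Csn2 at 4.06, a gene that read at most 1.03 in those 13 and -0.68 in deficient tumour 3. In supplemented tumour 4 Krt15 read 3.69, under all of those 13 (3.94 or more). The list mean without Csn2 was not taken. Elf5 was higher by 1.14 in deficient than in adequate tumours (limma's adjusted p = 0.986), and no gene of the list was called. The part of these cells in the Kit and Cpa3 values was not tested.

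Erythroid genes also correlated positively with Kit. All 4 tested, Hbb-b1 (r = 0.832), Ahsp (0.783), Hbb (0.754) and Alas2 (0.709), were positive with Kit over the 13 tumours, and all 4 were negative with Cpa3, between -0.301 and -0.0895. Their mean level was 0.85 to 3.02 in deficient tumours, -1.16 to -0.18 in supplemented tumours and -1.39 to 1.36 in adequate tumours. In supplemented tumour 4, where Kit was the highest of its diet, that mean was -1.16, the lowest of its diet. Their part in the Kit values was not tested. Melanocyte markers gave no level to set beside Kit, since Tyr, Tyrp1 and Mlana were all too dim to be tested. Of the same list, which also covers other Kit-expressing cells, Ano1, Cd34 and Etv1 were tested. Over the 13 tumours their r with Kit was -0.333, -0.102 and 0.149, and none was called in any comparison. Of the 13 tested luminal epithelial genes, 10 had a positive r with Kit (median 0.15) and 8 with Cpa3 (median 0.09).

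**Figure D4:**
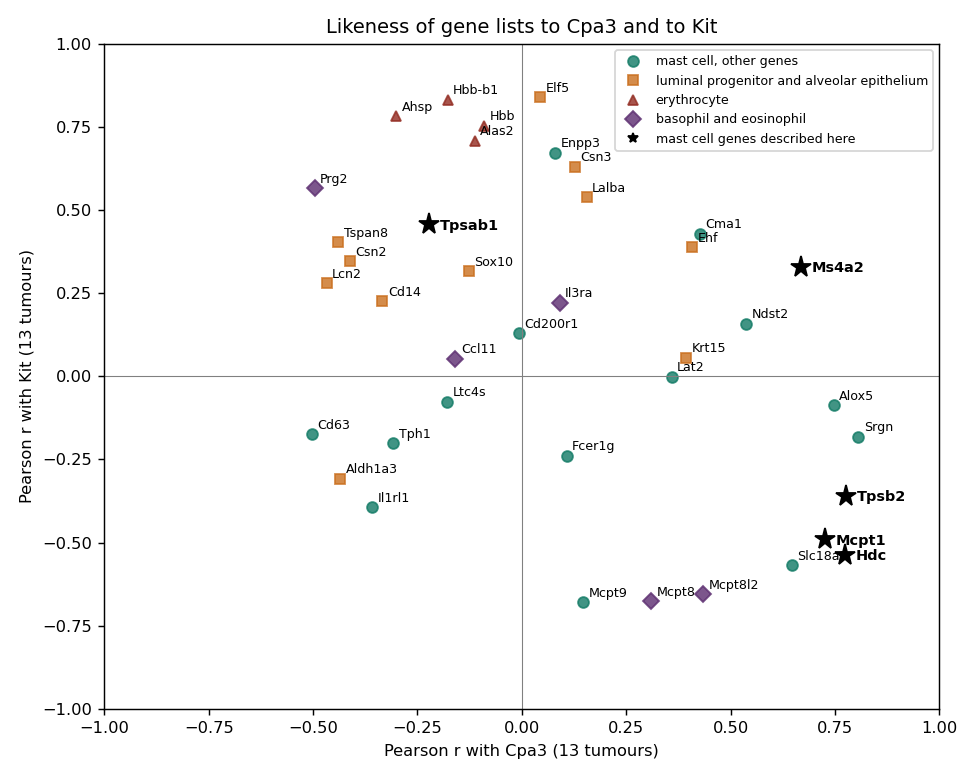
Pearson's r with Cpa3 (horizontal axis) and with Kit (vertical axis) over 13 tumours, one point per tested gene of 4 marker lists, with the mast cell genes described here as stars. Hdc, Tpsb2, Mcpt1 and Ms4a2 lie to the right (0.669 to 0.777), Tpsab1 lies at left (-0.223), and the erythroid genes and Elf5 lie at the top (0.709 to 0.840).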

How the data were processed

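RNA of 15 mammary tumours was measured on 15 one-colour arrays, from 200 ng of RNA each. Per the file headers, the scanner files hold spot intensity from which Agilent Feature Extraction 11.5.1.1 had taken background and spatial trend; version 15.5 stands in the submitters' processing notes. The log2 values of the authors' deposited table cover 30002 of 41012 probes. That table had column medians of 7.09 to 7.10 and followed the log2 median signal of each array (r 0.984 to 1.000 across probes), so its scale was read as log2 with no centring by gene. How it was normalized is not given in the sources used here. It was an alternative only.

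A level is log2 of the processed signal less log2 of the 75th percentile of its array, without control spots and 1359 outlier spots. Probes well above background on at least 5 arrays were kept (21015). Through a RefSeq table (GRCr8), 17502 probes (42.7%) had 1 symbol and 23510 none. The 3 diets were fitted in one limma 3.58.1 model (R 4.3.3; 12 residual degrees of freedom, Benjamini-Hochberg over 21015 probes, threshold 0.05), tested on simulated data. Correlations used 100000 permutations. Groups came from the labels; 1 free-text field that describes mammary gland at day 21 instead was not followed. The array number limits the precision.

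The members and lists were chosen with earlier results of these data known. Named genes are the members, Kitlg, Fcer1g, Cma1, Gata2, Mitf and Il1rl1, the 8 genes most correlated with Cpa3 and the 8 with Kit, and from each of 16 marker lists the 4 with the smallest F test p and the 4 most correlated with Cpa3 or, for epithelium, Kit; a gene is shown by its brightest tested probe, and 1 result under this rule is not reported here. Taking correlations over 13 tumours, and grouping Cpa3, Mcpt1, Tpsb2, Ms4a2 and Hdc, were chosen after seeing the data. The other lists, of mast cell mediators and of luminal, basal, T cell, macrophage, endothelial, fibroblast, adipocyte, muscle and nerve markers, had 0 called genes. The alternatives were normexp with offset 50 on the median signal (the mean signal is not a column used here) and quantile normalization, quantile normalization alone, another percentile, the deposited values, other filters, slide or replicate number as a block, brightness as a covariate, array weights, and arrays left out.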

Additional observations from a re-analysis of the deposited data

Results flagged for a closer look

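Supplemented tumour 4 lay far under the other 4 supplemented tumours for Cpa3 (-2.89, with the nearest at 0.06), Ms4a2 (-3.91, with the nearest at -0.07) and Hdc (-3.91, with the nearest at -0.58). Its gap to the nearest tumour was 0.758, 0.797 and 0.746 of the whole range for these genes, above Dixon's 95% critical value for 5 samples (0.710). Of 24 groups of 5 tumours tested, 3 passed, all in this tumour. Chance passes about 1 in 20 separate groups, but these groups are genes read in the same tumours. The 3 are therefore not separate observations, and their number cannot be set against chance. Its probes for these genes were not well above background, while 18473 of its spots were.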

How the results depend on the processing

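No probe was called in the main analysis, and of the alternatives only array weights called any (1 probe as supplemented minus deficient and 1 in the F test over the 3 diets), as did leaving out supplemented replicate 1 (supplemented minus deficient, 0 to 1 when replicates were left out in turn). Leaving out the 2 tumours without Cpa3 signal, added after seeing the data, turned the supplemented minus adequate sign for Mcpt1 (0.064), Cpa3 (0.0498) and Ms4a2 (0.27) and the supplemented minus deficient sign for Tpsab1 (0.00735). Array weights turned supplemented minus deficient for Cpa3 (-0.21), Tpsb2 (-0.25), Ms4a2 (-0.0793), Hdc (-0.14) and Tpsab1 (0.16). Tpsab1 also turned for deficient minus adequate under normexp (-0.0569) and in the deposited values (-0.0701), for supplemented minus adequate under both (-0.0313 and -0.0446) and with brightness as a covariate (-0.0132), and for supplemented minus deficient under both (0.0256 and 0.0255) and without the 3 dimmest arrays (0.13). The slide block turned Ms4a2 (-0.25), and leaving out the 3 dimmest arrays turned Hdc (-0.12), both as supplemented minus deficient. With each replicate left out in turn, supplemented minus adequate ran over -1.59 to 0.0644 for Mcpt1, -0.95 to 0.0498 for Cpa3, -0.0208 to 0.24 for Tpsab1 and -0.93 to 0.27 for Ms4a2, and supplemented minus deficient over -0.37 to 1.27 for Cpa3, -0.15 to 0.0483 for Tpsab1, -0.18 to 1.30 for Tpsb2 and -0.37 to 1.20 for Ms4a2. None of these differences passed the test under any setting, and the cause of the turns was not tested.

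Over all 15 tumours r of Kit with Cpa3 was -0.644 (permutation p = 0.0168, adjusted over the pairs 0.0253; rho -0.379, permutation p = 0.166). It rested on deficient replicate 3 and supplemented replicate 4: r was -0.058 without them, which are also the 2 farthest from the median, and -0.766 to -0.251 with single replicates left out. Over the 13 tumours it turned to 0.089 under quantile normalization, 0.513 without the 3 dimmest arrays and 0.064 with diet means removed, and ran over -0.411 to 0.279 with single replicates left out. The Kit-minus-Cpa3 difference between deficient and adequate tumours was 0.769 under normexp and ran over 0.98 to 2.99 with single replicates left out. The last value, the highest of 10 such runs, came without deficient replicate 2, the deficient tumour with the highest Cpa3. Its exact permutation p of 0.00794 was not adjusted for the choice among runs, and with all tumours the exact permutation p was 0.0952.

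Replicate numbers did not pair the tumours: same-numbered tumours correlated at -0.28 to 0.22. With the replicate block 0 probes were called in each comparison, Kit stayed at 1.03 between deficient and adequate tumours, r of Kit with Cpa3 was -0.831 over 15 and -0.542 over 13 tumours, and the Kit-minus-Cpa3 difference between deficient and adequate tumours was 2.25 (exact permutation p = 0.188). Kit could not be tested where 10 arrays had to be well above background. Array weights and brightness were not run for correlations and Kit-minus-Cpa3 tests. Kit, Fcer1a and Hdc are limited by signal near background, and under normexp, whose offset pulls dim values together, Kit differed by 0.30 between deficient and adequate tumours.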

Other observations

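Genes of the Mcpt8 family are proteases of basophils in the mouse. Mcpt8 read 0.48 to 3.15 in deficient tumours, 1.86 to 4.84 in supplemented tumours and 2.24 to 2.68 in adequate tumours, and Mcpt8l2 read 1.23 to 3.10, 2.06 to 5.18 and 2.79 to 3.48 in the same diets. In deficient tumour 3 and supplemented tumour 4, where Cpa3 was not well above background, Mcpt8 read 3.15 and 1.86 and Mcpt8l2 read 2.65 and 2.06; supplemented tumour 4 was the lowest of its diet for both, and deficient tumour 3 was the highest of its diet for Mcpt8. Both genes were highest in supplemented tumour 5. Mcpt9 read -1.85 to 0.30 in deficient tumours, -1.06 to 1.95 in supplemented tumours and -0.98 to 0.07 in adequate tumours, and was also highest in supplemented tumour 5. Over the 13 tumours r with Cpa3 was 0.310 for Mcpt8, 0.434 for Mcpt8l2 and 0.147 for Mcpt9, and r with Kit was -0.677, -0.655 and -0.679.

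Supplemented minus deficient, the difference was 1.32 for Mcpt8 (limma's adjusted p = 0.696), 1.26 for Mcpt8l2 (adjusted p = 0.679) and 1.63 for Mcpt9 (adjusted p = 0.663), and none was called. These proteases are paralogues of similar sequence, so signal shared between their probes cannot be told apart here. Of the basophil and eosinophil list, 13 genes had a probe and 5 were tested. Epx, Prg3 and Prss34 were too dim to be tested. Besides Mcpt8 and Mcpt8l2, the tested genes were Il3ra, Prg2 and Ccl11. Over the 13 tumours their r was 0.221, 0.566 and 0.054 with Kit and 0.090, -0.496 and -0.159 with Cpa3. Supplemented minus deficient they differed by 0.171, -0.136 and -0.669, and none was called.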
